A study of Mus musculus with 18 samples.

Results

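Bcl11a, Ivns1abp, Synpo, Cnmd, Sel1l3, Slc38a5 and Sv2c are 7 genes chosen by their measured transcript levels, which were low in both groups of 40-week mouse ovaries against 8-week ovaries, leaving out genes known as restricted to the oocyte. They are 7 of 55416 genes in the tables and 7 of the 16959 genes that had enough counts to be tested. Because the 2 contrasts against young ovaries chose them, the values of the 7 genes in those contrasts are given as a description, with no test, and nothing is supported with them. The contrast between the 2 aged groups and the variation between mice of 1 group were not named in that choice and are tested.

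The libraries came from ovaries of 18 female wildtype Balb/c mice, 6 mice per group and 1 library per mouse, read with a QuantSeq 3' kit that sequences the 3' end of polyadenylated transcripts. The aged control group (OC) was 40 weeks old and received water. The aged Samul-tang group (OC+SM) was 40 weeks old and received Samul-tang, a herbal decoction, at 2.5 g/kg. The young control group (YC) was 8 weeks old and received water. All 3 groups were dosed by mouth 5 times a week for 4 weeks and were then superovulated with pregnant mare serum gonadotropin (PMSG, 5 IU), then 48 hours later with human chorionic gonadotropin (hCG, 5 IU), and ovaries were taken 16 hours after hCG. Every value therefore belongs to a gonadotropin-stimulated ovary, and OC and OC+SM mice could share a cage, a point on which the sources used here give no map of mice to cages.

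A bulk ovary mixes oocytes, the granulosa and cumulus cells that surround them, theca and interstitial cells that make androgens, luteal cells that form from the follicle wall after ovulation, stroma, vessels and leukocytes. The pool of follicles shrinks with reproductive age, and a dose of hCG turns granulosa cells of ovulating follicles into luteal cells. Lower levels in such a sample can mean fewer cells of a type or less RNA per cell, and the 2 cannot be told apart here.

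The 7 genes do not form 1 pathway. Bcl11a encodes a zinc finger repressor best known for silencing fetal globin genes and for roles in B cells and neurons. Ivns1abp encodes a BTB-kelch protein that binds actin, and Synpo encodes synaptopodin, an actin-associated protein of kidney podocytes and dendritic spines. Cnmd encodes chondromodulin, a BRICHOS-domain glycoprotein of cartilage that inhibits blood vessel growth, and Sel1l3 encodes a membrane protein with SEL1-like repeats. Slc38a5 encodes a system N carrier of glutamine and other neutral amino acids, and Sv2c encodes a synaptic vesicle glycoprotein that botulinum neurotoxin A uses as a receptor.

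RefSeq promoter windows, 250 bases before to 50 after a transcript start in GRCm38.p6, were found for 5 of the 7 genes, as 6 windows. The windows of Bcl11a, Cnmd and Sv2c are shown because Bcl11a and Cnmd varied together between mice of a group and Sv2c varied most. The windows lie at chr11:24080445-24080744 on the plus strand for Bcl11a, chr14:79662134-79662433 on the minus strand for Cnmd and chr13:96132528-96132827 on the minus strand for Sv2c. Capitals mark the SP1 motif, GGGCGG or its reverse complement CCGCCC.
Bcl11a: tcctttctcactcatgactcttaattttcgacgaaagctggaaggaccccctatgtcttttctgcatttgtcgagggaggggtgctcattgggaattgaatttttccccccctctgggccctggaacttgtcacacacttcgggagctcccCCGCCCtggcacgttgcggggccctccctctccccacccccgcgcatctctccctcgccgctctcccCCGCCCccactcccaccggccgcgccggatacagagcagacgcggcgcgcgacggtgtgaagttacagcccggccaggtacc
Cnmd: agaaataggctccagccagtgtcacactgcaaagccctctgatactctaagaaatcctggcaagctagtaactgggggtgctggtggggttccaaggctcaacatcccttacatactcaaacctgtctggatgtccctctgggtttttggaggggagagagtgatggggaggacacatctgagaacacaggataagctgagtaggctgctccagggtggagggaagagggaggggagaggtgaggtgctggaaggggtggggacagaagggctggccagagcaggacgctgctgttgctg
Sv2c: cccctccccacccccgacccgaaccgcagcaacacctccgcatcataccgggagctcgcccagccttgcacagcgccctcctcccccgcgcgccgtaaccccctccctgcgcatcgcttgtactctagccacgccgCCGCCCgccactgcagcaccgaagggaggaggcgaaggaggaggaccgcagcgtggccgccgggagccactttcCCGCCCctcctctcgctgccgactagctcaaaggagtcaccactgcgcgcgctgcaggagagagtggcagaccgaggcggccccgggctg
The Bcl11a window held 2 SP1 motifs, starting at positions -99 and -32 from the transcript start, and the Sv2c window held 2, starting at -114 and -40, against 0 in the Cnmd window. In all, 4 of the 5 genes had the SP1 motif on either strand, in 5 of the 6 windows (both windows of Ivns1abp, which start 12 bases apart and overlap, are counted), and 35.7% of 32851 mouse promoter windows of the same length held it. G and C made up 63.0% of the Bcl11a window, 56.0% of the Cnmd window and 71.7% of the Sv2c window, against a median of 52.7% over all windows. The NR5A1 response element AAGGTCA (held by 4.72% of all windows), the AP-1 element TGANTCA (7.81%), the binding motif of GATA factors, here AGATAA (11.2%), and TATAAA, the core of the box named after it (13.6%), were in none of the 6, searched on both strands and with no overlap with the SP1 motif. A match is a string of letters and not a measured binding site.

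Levels are counts per 1000000 counts of a library (CPM) after scaling by TMM. TMM gives each library a single factor that offsets the effect of its composition on the library size. Total expected counts, in units of 1000000, ran from 11.61 to 13.43 in OC, from 14.2 to 20.35 in OC+SM and from 9.05 to 14.15 in YC libraries. No 2 libraries agreed within sampling noise. OC+SM replicate 6 and YC replicate 3 stood apart from their groups, with a mean correlation to their own group of 0.976 and 0.977 against 0.982 to 0.986 for the other libraries, and results that rest on them are given with and without them. YC replicate 3 was also the library with the fewest counts of all, 9.05 in the same unit. The 6 libraries of a group are separate mice, per the labels.

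The label of a consistent fall held for 5 of the 7 genes. For Bcl11a, Ivns1abp, Synpo, Cnmd and Sel1l3 each of the 12 aged libraries lay below each of the 6 young libraries, a separation that 2.41% of all genes tested showed. Against YC, 5 of the 7 genes did not overlap in OC (4.17% of all genes tested) and 6 did not overlap in OC+SM (4.65%). Slc38a5 overlapped by a small margin in OC and Sv2c overlapped in both aged groups. These counts follow from how the genes were picked, and nothing is read from them. The data assign no transcript to a cell type, so that the word somatic in the choice of genes could not be checked in these bulk libraries.

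**Figure D1:**
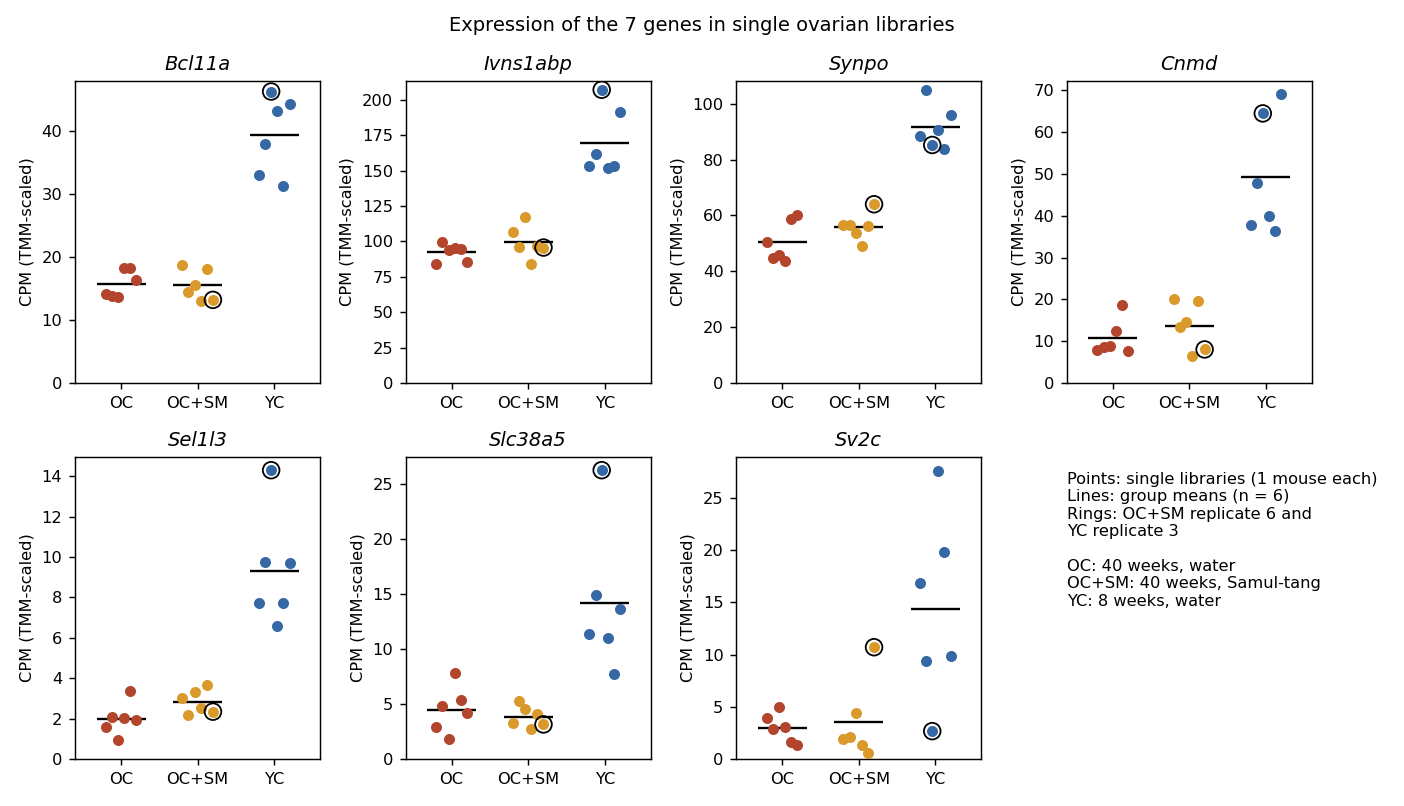
Expression in CPM (vertical axes, from 0) of the 7 genes in the 6 libraries each of OC, OC+SM and YC. Points are single mice and lines are group means. Rings mark OC+SM replicate 6, where Sv2c was 10.7 CPM, and YC replicate 3, where it was 2.66 CPM, each inside the Sv2c range of the other age.

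Bcl11a, the repressor, had 13.7, 15.3 and 18.3 CPM (lowest, median and highest of 6 libraries) in OC, 13.0, 15.1 and 18.8 CPM in OC+SM and 31.2, 40.5 and 46.2 CPM in YC ovaries. The aged groups lay on top of each other, and the highest aged library was well below the lowest young one. The fitted log2 fold change was -1.31 ± 0.12 (SE) for OC over YC and -1.33 ± 0.12 for OC+SM over YC. The 2 genes annotated antisense to Bcl11a, Gm12064 and 4930538E20Rik, averaged 0.211 and 0.128 CPM over all libraries. Group means were 15.8 ± 2.18 in OC, 15.6 ± 2.46 in OC+SM and 39.3 ± 6.25 CPM in YC (SD, n = 6).

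Ivns1abp, the kelch protein and the most abundant of the 7 in counts, had 84.0, 94.4 and 99.3 CPM in OC, 84.3, 96.6 and 117 CPM in OC+SM and 152, 158 and 207 CPM in YC ovaries. No aged library reached the young range, and the young spread came from 2 high libraries. The log2 fold change was -0.88 ± 0.08 for OC over YC and -0.77 ± 0.08 for OC+SM over YC. Gm10138, annotated antisense to Ivns1abp, was lower too, at 5.19 ± 1.29 CPM in OC against 8.27 ± 2.01 CPM in YC (log2 fold change -0.66 ± 0.18, edgeR adjusted p = 0.0150). How the counting treated strand was not given in the sources used here, so reads of Ivns1abp and Gm10138 cannot be told apart.

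Synpo, the other actin-associated gene, had 43.6, 48.1 and 60.3 CPM in OC, 49.0, 56.5 and 64.0 CPM in OC+SM and 83.7, 89.6 and 105 CPM in YC ovaries. All groups were narrow, and a gap without any library separated the aged from the young ones. Its log2 fold change, -0.85 ± 0.08 for OC over YC and -0.71 ± 0.08 for OC+SM over YC, was the smallest of the 7 in size together with that of Ivns1abp. No annotated gene overlaps Synpo, Cnmd or Slc38a5.

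Cnmd, the vessel growth inhibitor, had 7.80, 8.67 and 18.6 CPM in OC, 6.47, 14.0 and 20.2 CPM in OC+SM and 36.4, 43.8 and 69.0 CPM in YC ovaries. Single mice differed more than for Bcl11a, yet every young library stood above every aged one. The log2 fold change was -2.20 ± 0.30 for OC over YC and -1.83 ± 0.29 for OC+SM over YC. The coefficient of variation was 39.6% in OC, 41.5% in OC+SM and 28.8% in YC, against 13.8%, 15.8% and 15.9% for Bcl11a in the same order of groups.

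Sel1l3, the repeat protein, was the least abundant of the 7, with 0.946, 1.98 and 3.38 CPM in OC, 2.16, 2.78 and 3.67 CPM in OC+SM and 6.58, 8.70 and 14.3 CPM in YC ovaries. In counts this was 11.0 to 42.0 per library in OC, 35.1 to 72.0 in OC+SM and 90.0 to 134 in YC, so that the aged values rest on few counts. The groups of different age did not overlap, and the aged control values reached lowest. The log2 fold change was -2.21 ± 0.24 for OC over YC and -1.70 ± 0.22 for OC+SM over YC.

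Slc38a5, the amino acid carrier, had 1.81, 4.51 and 7.82 CPM in OC, 2.73, 3.70 and 5.25 CPM in OC+SM and 7.72, 12.6 and 26.3 CPM in YC ovaries. The highest OC library, replicate 4, touched the lowest young library, and the OC+SM group stayed below all young libraries. The log2 fold change was -1.64 ± 0.30 for OC over YC and -1.86 ± 0.30 for OC+SM over YC. The highest young value, 26.3 CPM, belonged to YC replicate 3, which was also the highest young library for Bcl11a, Ivns1abp and Sel1l3.

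Sv2c, the vesicle glycoprotein, went against the description of a consistent fall. It had 1.35, 2.95 and 4.99 CPM in OC and 0.593, 1.98 and 10.7 CPM in OC+SM libraries. The 6 YC libraries, replicates 1 to 6, had 16.9, 9.39, 2.66, 27.6, 19.8 and 9.85 CPM. OC+SM replicate 6, at 10.7 CPM, lay above 3 of the 6 young libraries, and YC replicate 3 lay inside the OC range. The log2 fold change was -2.29 ± 0.63 for OC over YC and -2.04 ± 0.60 for OC+SM over YC, the largest standard errors of the 7 genes. Without OC+SM replicate 6 and YC replicate 3 these were -2.50 and -2.97. Gm20075, annotated on the same strand across Sv2c, had 68.7 ± 7.62 CPM in OC, 72.4 ± 8.63 CPM in OC+SM and 68.9 ± 6.31 CPM in YC (log2 fold change -0.00 ± 0.08 for OC over YC, edgeR adjusted p = 0.988). Expected counts of Sv2c were whole in 18 of 18 libraries, so no fractional share of reads showed in them. To which of the 2 genes RSEM gave reads from where they overlap was not checked, so that such reads cannot be told apart.

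Samul-tang was compared with water in aged ovaries to ask whether it moved these genes. No gene of the 7 passed the edgeR test across all genes at an adjusted p of 0.05. Of all genes tested 1.04% passed it (0.489% lower and 0.548% higher). At so low a share, 0 of the 7 does not set these genes apart. DESeq2 also called 0 of the 7, with 663 genes called in all. Being picked as low in both aged groups favours a small difference between them. By sign, 5 of the 7 were higher in OC+SM than in OC, where the median log2 fold change of all genes tested was 0.01. The 2 groups overlapped for each of the 7. Of all genes tested, 0.678% had every OC+SM library below every OC library, and the share with the reverse order is not given here.

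Sel1l3 was nearest to the threshold, with 2.84 ± 0.598 CPM in OC+SM against 1.99 ± 0.800 CPM in OC (SD, n = 6 each). Its log2 fold change was 0.51 ± 0.24, with a 95% interval of 0.01 to 1.01, an unadjusted p of 0.0456 and an edgeR adjusted p of 0.284. It was the 1 gene of the 7 at an unadjusted p under 0.05, a level that 16.9% of all genes tested reached. The groups overlapped, the lowest OC+SM library being above 5 of the 6 OC libraries.

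Bcl11a was nearest to 0, with a log2 fold change of -0.02 ± 0.12 for OC+SM over OC (95% interval -0.26 to 0.23, edgeR adjusted p = 0.962). For Ivns1abp it was 0.11 ± 0.08 (interval -0.06 to 0.29, edgeR adjusted p = 0.525) and for Synpo 0.15 ± 0.08 (interval -0.03 to 0.32, edgeR adjusted p = 0.390). The intervals of these 3 genes held no change larger than 0.32 on the log2 scale. Those of Cnmd, at 0.37 ± 0.31 (interval -0.28 to 1.02, edgeR adjusted p = 0.587), and Slc38a5, at -0.22 ± 0.31 (interval -0.88 to 0.44, edgeR adjusted p = 0.782), were wider. Sv2c was hardly bounded, at 0.25 ± 0.65 (interval -1.13 to 1.63, edgeR adjusted p = 0.895), and its sign turned to -0.47 without OC+SM replicate 6. Every OC+SM library was deeper than every OC library, and the share of counts from the most abundant gene, ENSMUSG00000119584, ran from 6.2 to 14.35% in OC+SM against 13.81 to 18.49% in OC. The part of either in these differences was not tested.

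**Figure D2:**
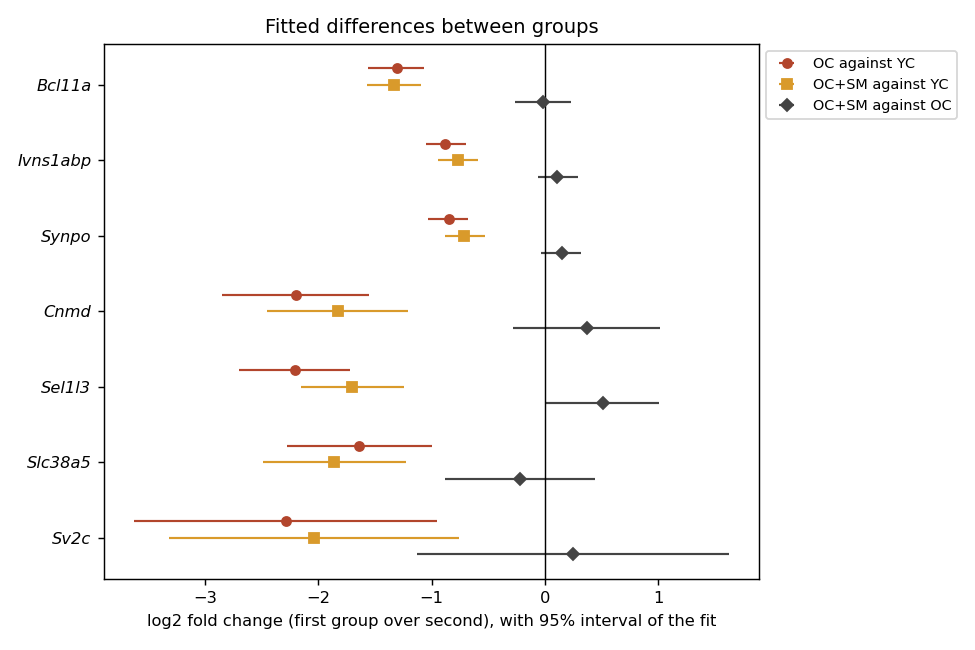
Fitted log2 fold changes (horizontal axis) of the 7 genes with the 95% interval of the edgeR fit, for OC against YC, OC+SM against YC and OC+SM against OC. The intervals of OC+SM against OC held 0 for every gene but Sel1l3, whose lower bound was 0.01, and were widest for Sv2c.

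The genes were next compared among mice of the same group, which the choice of genes did not use. Each log2(CPM + 1) value was taken as the deviation from its group mean, and Pearson's r and Spearman's rho were computed over the 18 libraries with 100000 permutations within groups. In all 112 relations were computed, 21 between genes and 91 between a gene and the summed CPM of 1 of 13 lists of cell type markers. Of these, 11 passed an adjusted p of 0.05 by Pearson's r (Benjamini-Hochberg over the 112), 5 of them between genes. By Spearman's rho 7 passed, 6 of them among the 11. The other was Bcl11a with the theca and interstitial sum (rho = -0.70, permutation adjusted p = 0.0366, and r = -0.65, permutation adjusted p = 0.0521). Without Fdx1, Mgarp and Cyp51 in that sum, rho was -0.28 (permutation adjusted p = 0.447) and r -0.34 (permutation adjusted p = 0.350). That relation therefore missed the threshold with the other markers of the list.

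Bcl11a and Cnmd rose and fell together from mouse to mouse, with r = 0.83 (permutation p = 7.00e-05, adjusted p = 0.00392) and rho = 0.84 (permutation p = 1.10e-04, adjusted p = 0.00411). The correlation was 0.77 within OC, 0.95 within OC+SM and 0.79 within YC, and 0.81 without the 2 libraries farthest from the median of Bcl11a. It stayed past the threshold without any 1 of the 18 libraries and was 0.80 (adjusted p = 0.0302) without OC+SM replicate 6 and YC replicate 3.

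Both genes also followed the summed granulosa and cumulus markers, a list of 20 genes led by Inha, Gja1 and Ccnd2. For Cnmd r was 0.86 (permutation p = 5.00e-05, adjusted p = 0.00392) and rho 0.86 (permutation p = 1.50e-04, adjusted p = 0.00420), with 0.63, 0.92 and 0.99 within OC, OC+SM and YC, and r was 0.85 without the 2 farthest libraries. For Bcl11a r was 0.84 (permutation p = 2.00e-04, adjusted p = 0.00560) and rho 0.88 (permutation p = 4.00e-05, adjusted p = 0.00336), with 0.98, 0.88 and 0.74 within OC, OC+SM and YC, and r was 0.82 without the 2 farthest libraries. Without the 3 leading genes of the sum, r was 0.85 for each (permutation adjusted p = 0.00112 for Cnmd and 0.00560 for Bcl11a). Both held without any 1 library, and without OC+SM replicate 6 and YC replicate 3 together they were 0.84 (adjusted p = 0.0302) for Cnmd and 0.81 (adjusted p = 0.0310) for Bcl11a. These values share libraries and depth, and whether granulosa cells carry the transcripts was not tested.

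Sv2c had negative correlations with the other genes, of which 1 of 6 passed the threshold, that with Sel1l3; with Synpo r was -0.02 and with Ivns1abp -0.32. Among the other 6 genes 14 of 15 correlations were positive, with a median of 0.58, and 4 passed. Sv2c followed the summed theca and interstitial markers, 15 genes of which Fdx1 made up 40.9% of the sum, Mgarp 22.7% and Cyp51 13.4%, with r = 0.80 (permutation p = 1.30e-04, adjusted p = 0.00485) and rho = 0.83 (permutation p = 6.00e-05, adjusted p = 0.00336). Within groups r was 0.75 in OC, 0.80 in OC+SM and 0.92 in YC. OC+SM replicate 6 and YC replicate 3 are the 2 libraries at the ends of this relation: without both r was 0.64 and missed the threshold (adjusted p = 0.122), while leaving out any 1 library kept it. Without Fdx1, Mgarp and Cyp51 in the sum r was 0.21 (permutation adjusted p = 0.491), so the relation was not found with the other 12 markers. Sv2c and Sel1l3 were inversely related (r = -0.70, permutation p = 8.90e-04, adjusted p = 0.0199; rho = -0.67, permutation p = 0.00554, adjusted p = 0.0550). That relation missed the threshold without YC replicate 3 or YC replicate 4, and r was -0.59 without the 2 libraries farthest from the median of Sel1l3. It also missed the threshold without OC+SM replicate 6 and YC replicate 3 together (r = -0.61, permutation adjusted p = 0.125).

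**Figure D3:**
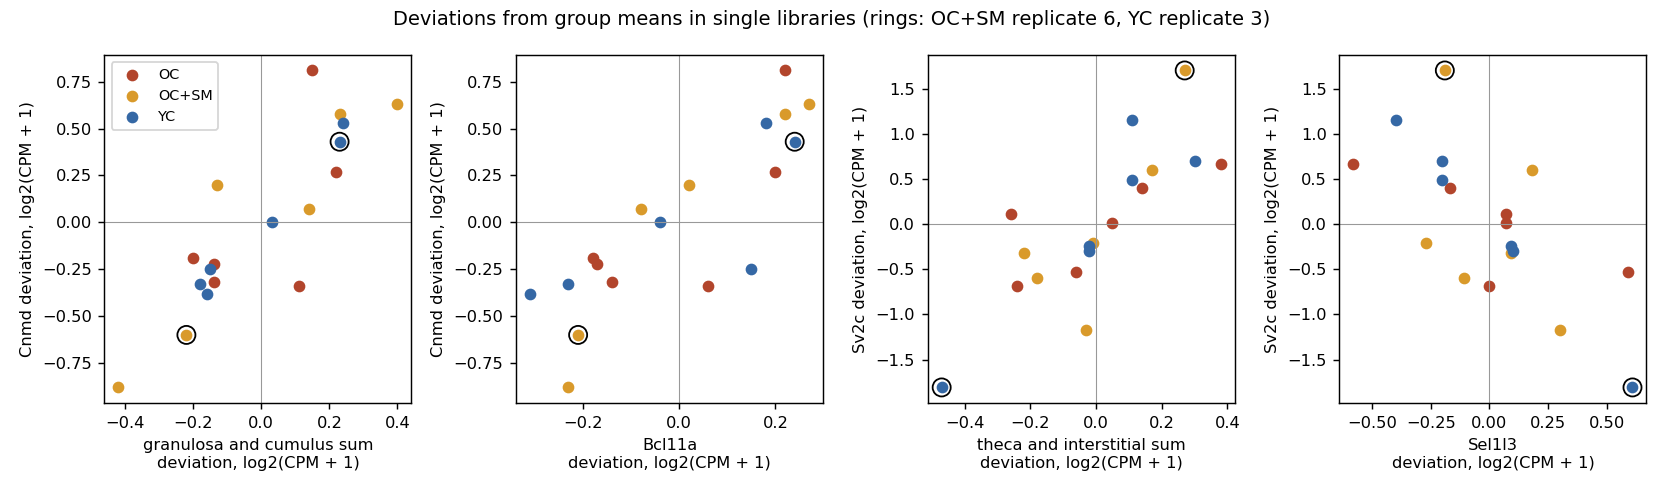
Deviations from group means in single libraries, in log2(CPM + 1), of Cnmd against the granulosa and cumulus sum and against Bcl11a, and of Sv2c against the theca and interstitial sum and against Sel1l3. Points are libraries of OC, OC+SM and YC; rings mark OC+SM replicate 6 and YC replicate 3, which lie at the ends of the Sv2c values, and r was 0.86, 0.83, 0.80 and -0.70 from left to right.

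The other 6 relations past the threshold held in fewer single omissions. Cnmd correlated with Sel1l3 (r = 0.68, rho = 0.65, permutation adjusted p = 0.0340 and 0.0550) and stayed past the threshold in 11 of 18 omissions, being lost without OC replicate 1 or 5, OC+SM replicate 5 or 6, or YC replicate 1, 3 or 4. Cnmd with Ivns1abp (r = 0.68, rho = 0.75, permutation adjusted p = 0.0436 and 0.0106) and Sel1l3 with Slc38a5 (r = 0.72, rho = 0.65, permutation adjusted p = 0.0436 and 0.0550) each did so in 6 of 18. The first was kept when OC replicate 2, 3 or 5 or OC+SM replicate 2, 3 or 5 was left out, and the second when OC replicate 4 or 5 or OC+SM replicate 1, 2, 3 or 4 was. Within OC, OC+SM and YC, r was 0.45, 0.66 and 0.94 for the first. For the second it was 0.76, 0.09 and 0.89, so that relation was hardly seen within OC+SM. Slc38a5 correlated with the granulosa and cumulus sum (r = 0.60, rho = 0.63) and inversely with the theca and interstitial sum (r = -0.73, rho = -0.59), both at a permutation adjusted p of 0.0436 for r, with 0.0550 and 0.0960 for rho, in 5 and 6 of 18 omissions. These were OC replicate 2, OC+SM replicates 1, 2 and 3 and YC replicate 6 for the granulosa sum, and OC replicates 2 and 6 and OC+SM replicates 1 to 4 for the theca sum. Without the 3 leading genes of each sum they were 0.60 (permutation adjusted p = 0.0678) and -0.37 (permutation adjusted p = 0.374). Within OC, OC+SM and YC, r of Slc38a5 with the full granulosa sum was 0.82, 0.42 and 0.77. With the full theca sum it was -0.87, 0.27 and -0.99, so the inverse relation was not seen within OC+SM. Sel1l3 correlated with the oocyte sum (r = 0.60, rho = 0.77, permutation adjusted p = 0.0436 and 0.00896) in 7 of 18, those of OC replicates 2 and 4, OC+SM replicates 2, 3 and 4 and YC replicates 3 and 5. With the 3 leading genes of the oocyte sum left out, r was 0.61 and rho 0.74 (permutation adjusted p = 0.0457 and 0.0128). Without the 2 farthest libraries, r was 0.64, 0.72, 0.50, 0.53, -0.50 and 0.65 in the order given. Without OC+SM replicate 6 and YC replicate 3 together, all but the last missed the threshold. In the same order r was then 0.65, 0.68, 0.60, 0.54, -0.60 and 0.74. The permutation adjusted p was 0.122, 0.125, 0.191, 0.176, 0.189 and 0.0314.

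Synpo stood outside this pattern, with r between -0.09 and 0.23 to the other 6 genes and none of its relations past the threshold. Ivns1abp passed it in 1 relation only, that with Cnmd.

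**Figure D4:**
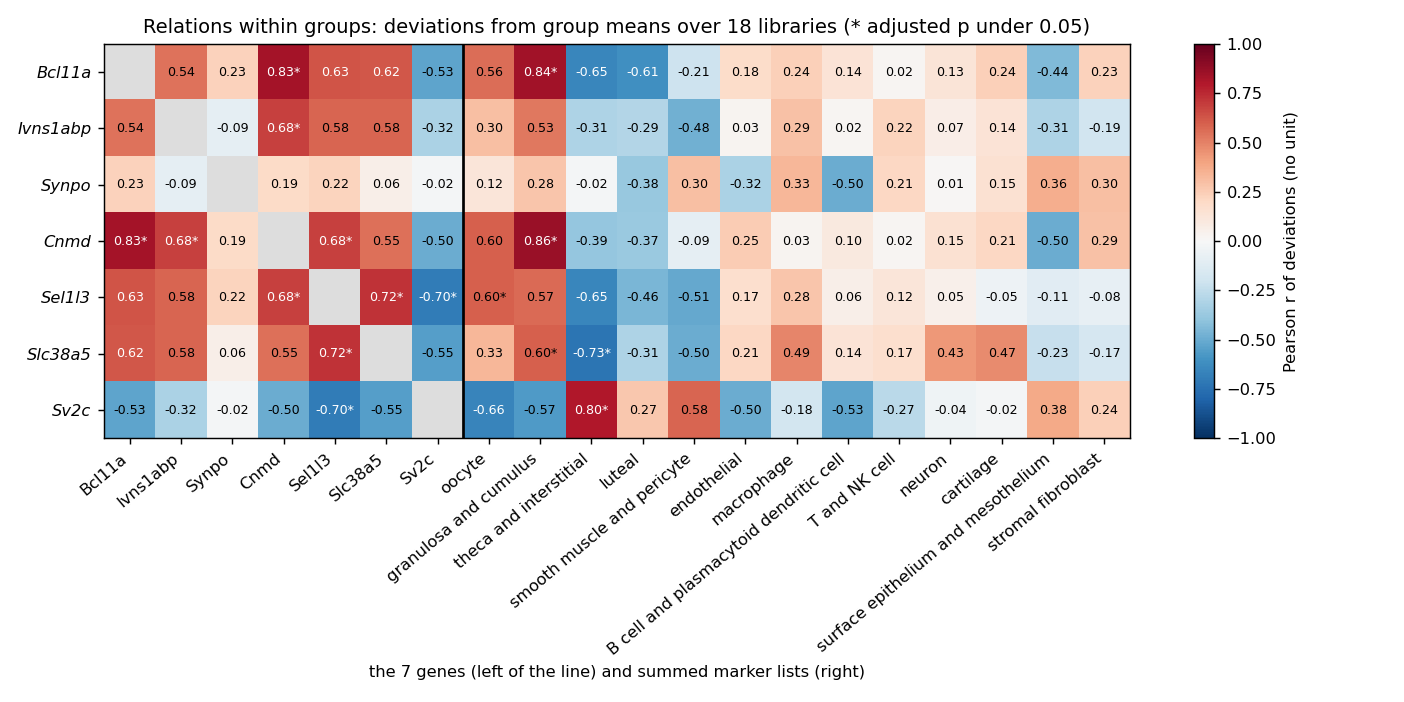
Pearson's r of deviations from group means over 18 libraries, for each of the 7 genes (vertical) against the other genes and the 13 summed marker lists (horizontal), from blue (negative) to red (positive), with asterisks at an adjusted p under 0.05. Bcl11a and Cnmd share high values with the granulosa and cumulus sum, 0.84 and 0.86, and Sv2c reaches -0.70 with Sel1l3 and 0.80 with the theca and interstitial sum.

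The marker sums themselves differed between ages. The oocyte sum ran from 76.4 to 107 CPM in OC, from 59.5 to 116 CPM in OC+SM and from 185 to 267 CPM in YC (OC over YC 0.380, exact permutation p = 0.00216, the smallest that 924 regroupings can give, adjusted p = 0.00703 over 39 tests). The granulosa and cumulus sum ran from 1652 to 2214 CPM in OC, from 1341 to 2375 CPM in OC+SM and from 2352 to 3147 CPM in YC (OC over YC 0.713, exact permutation p = 0.00216, adjusted p = 0.00703). Of its 20 genes 10 fell and 1 rose in OC against YC, where 6.03% of all genes tested fell and 5.25% rose. Esr2, estrogen receptor beta, fell by a log2 fold change of -1.84 ± 0.18 (edgeR adjusted p = 7.77e-07). A lower sum in OC was not particular to these 2 lists. OC over YC was 0.717 for smooth muscle and pericyte, 0.624 for neuron, 0.612 for cartilage and 0.808 for stromal fibroblast markers. The other sums had ratios above 1, from 1.10 (B cell and plasmacytoid dendritic cell) to 1.53 (T and NK cell). Bcl11a and Cnmd, and less stably Sel1l3 and Slc38a5, were related to the granulosa or oocyte sum within groups. Their low aged levels follow from how they were picked, so nothing is read from these sums being low in the same groups. The part of cell composition in their levels was not tested. The theca and interstitial sum ran from 3188 to 4972 CPM in OC, from 3452 to 4849 CPM in OC+SM and from 2268 to 3868 CPM in YC (OC over YC 1.22, exact permutation adjusted p = 0.122; OC+SM over YC 1.27, exact permutation adjusted p = 0.0222). Without OC+SM replicate 6 and YC replicate 3, OC+SM over YC was 1.15 (exact permutation adjusted p = 0.0573), and that call was also lost without YC replicate 2, 3 or 6 alone. Fdx1, Mgarp and Cyp51 made up 77.0% of that sum. Gene by gene, 5 of the 14 tested theca and interstitial markers fell and 1 rose in OC against YC, with a median log2 fold change of -0.28, among them Insl3, a hormone of theca cells (-1.68 ± 0.17, edgeR adjusted p = 7.19e-07). In OC+SM against YC 3 fell and 1 rose, with a median of -0.30, where 10.9% of all genes tested fell and 11.5% rose. The part of theca cells in the Sv2c values was not tested.

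Among marker genes of the cells for which Bcl11a, Cnmd and Sv2c are best known, some averaged under 1 CPM and others were well above it. Col11a1 made up 47.6% of the cartilage sum and Uchl1, at 25.8 CPM on average, 44.6% of the neuron sum. Which cells carry the transcripts of the 7 genes was not tested. Of 11 cartilage markers 7 averaged under 1 CPM and Col9a1 was at 0 in all libraries; the summed list ran from 20.3 to 25.7 CPM in OC, from 18.6 to 32.3 CPM in OC+SM and from 34.5 to 41.1 CPM in YC. Of 12 neuron markers 6 averaged under 1 CPM, and the sum ran from 42.3 to 51.6 CPM in OC, from 42.7 to 55.8 CPM in OC+SM and from 71.9 to 83.9 CPM in YC. Of 12 markers of B cells and plasmacytoid dendritic cells 7 averaged under 1 CPM, and Ebf1 made up 80.9% of a sum that ran from 60.5 to 75.3 CPM in OC, from 34.0 to 76.3 CPM in OC+SM and from 55.8 to 72.4 CPM in YC. None of these 3 sums passed the threshold in a relation with any of the 7 genes over the 18 libraries. For Slc38a5 and the neuron sum r was 0.43, and 0.70 without YC replicate 3 (permutation adjusted p = 0.0297) or 0.71 without it and OC+SM replicate 6 (permutation adjusted p = 0.0497). For Cnmd and the B cell sum r was 0.10, and -0.77 without OC+SM replicate 6 and YC replicate 3 (permutation adjusted p = 0.0314).

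Relatives and partners of each gene were read from 7 lists that hold none of the 7 genes. In OC against YC, 11.3% of all genes tested were called, 6.03% lower and 5.25% higher, and the median log2 fold change of all genes was 0.01. For OC+SM against YC 22.4% were called, 10.9% lower and 11.5% higher.

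Of 25 tested members of the BCL11 and BAF chromatin complex list, 1 fell and 0 rose in OC against YC, and the median log2 fold change was -0.02. The 1 was Dpf3, a reader subunit of the complex, at 16.2 ± 4.64 CPM in OC against 28.4 ± 1.65 CPM in YC (log2 fold change -0.80 ± 0.14, edgeR adjusted p = 3.74e-04), and 2 genes were called without OC replicate 2, 5 or 6, OC+SM replicate 5 or YC replicate 3. In OC+SM over YC 10 fell and 0 rose, among them Dpf1 (-0.89 ± 0.14, edgeR adjusted p = 1.38e-04), with a median of -0.12. In OC+SM against OC 1 of the 25 fell, Smarcc2, a core subunit (-0.36 ± 0.09, edgeR adjusted p = 0.0436), a call kept in 4 of 18 single omissions only, those of OC+SM replicates 4, 5 and 6 and YC replicate 3. The count of the list in that comparison was 2 without OC+SM replicate 6, 3 without OC+SM replicate 5 or YC replicate 3, 4 without OC+SM replicate 4 and 0 without any other library.

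Among 40 tested BTB-kelch genes and cullin 3, the relatives of Ivns1abp, 2 fell and 2 rose in OC against YC, with a median of 0.09. Klhl23 fell by 0.51 on the log2 scale (SE 0.12, edgeR adjusted p = 0.00489) and Klhl2 rose by 0.26 (SE 0.07, edgeR adjusted p = 0.0213). The Klhl2 call was lost without OC replicate 2 or YC replicate 3 or 5. Of the list, 2 genes were called without OC replicate 2, 3 or 6 or YC replicate 2, 5 or 6, and 7 without OC+SM replicate 6. In the other aged group 4 fell and 3 rose. Among 17 tested partners of Synpo, synaptopodins and proteins of actin bundles, 3 fell and 3 rose in OC against YC. Synpo2, the muscle relative of synaptopodin, fell by 0.67 (SE 0.16, edgeR adjusted p = 0.00618) and Podxl, a sialomucin of podocytes and endothelium, rose by 0.39 (SE 0.10, edgeR adjusted p = 0.0138). With Samul-tang 4 of the 17 fell and 4 rose against YC, and 1 rose against OC, Actn4, an alpha-actinin (0.29 ± 0.06, edgeR adjusted p = 0.0273). That call was lost without OC replicate 2, 3 or 6 or OC+SM replicate 1 or 3, and 2 genes of the list were called without OC+SM replicate 4.

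Of 11 tested BRICHOS genes and vessel growth inhibitors, the relatives of Cnmd, 1 fell and 0 rose in OC against YC, with a median of -0.21. This was Thbs1, thrombospondin 1, at a log2 fold change of -0.75 ± 0.14 in OC and -0.94 ± 0.14 in OC+SM over YC (edgeR adjusted p = 0.00123 and 1.00e-04). Without YC replicate 3 or 5, 2 genes of the list were called in OC against YC. With Samul-tang 2 of the 11 fell and 1 rose against YC, and 1 in all was called without OC+SM replicate 3 or YC replicate 4. The SEL1L and ER-associated degradation list, which removes misfolded proteins from the endoplasmic reticulum, had 8 of 25 tested genes that rose and 1 that fell in OC against YC, with a median log2 fold change of 0.09. The same numbers were counted in OC+SM against YC, but the genes that rose were in part others. Syvn1, Edem2 and March6 were called higher in OC only, and Ufd1, Derl1 and Derl2 in OC+SM only. In OC against YC Herpud1 rose by 0.69 (SE 0.10, edgeR adjusted p = 4.53e-05), whereas Derl3, a derlin, fell by 1.70 (SE 0.19, edgeR adjusted p = 2.52e-06).

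Of 19 tested SLC38 and other neutral amino acid carriers, 2 fell and 2 rose in OC against YC. Slc38a1, a system A carrier, had a log2 fold change of -0.60 ± 0.10 (edgeR adjusted p = 2.58e-04) and Slc38a4 one of -1.38 ± 0.42 (edgeR adjusted p = 0.0349), and Slc36a1 and Slc7a5 rose by 0.41 and 0.42 (SE 0.10 and 0.13, edgeR adjusted p = 0.00834 and 0.0366). The Slc38a4 call was lost without OC replicate 1, 2, 3, 4 or 6 or YC replicate 2, 5 or 6, and the Slc7a5 call without OC replicate 1, 3, 4 or 5 or YC replicate 2, 3, 4 or 6. The count of the list was 2 without OC replicate 1, 3 or 4 or YC replicate 2 or 6. For OC+SM against YC 2 of the 19 fell and 3 rose. Of 25 tested genes of SV2 proteins and regulated exocytosis, the relatives of Sv2c, 2 fell and 1 rose in OC against YC. Syt7, a calcium sensor of exocytosis, was at -1.13 ± 0.15 (edgeR adjusted p = 3.27e-05), Syt2 at -1.23 ± 0.40 (edgeR adjusted p = 0.0477, kept in 6 of 18 single omissions, those of OC replicate 6, OC+SM replicates 1, 2 and 6 and YC replicates 2 and 4) and Syngr1, a vesicle membrane protein, at 0.86 ± 0.12 (edgeR adjusted p = 2.16e-05). For OC+SM against YC 2 of the 25 fell and 5 rose.

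**Figure D5:**
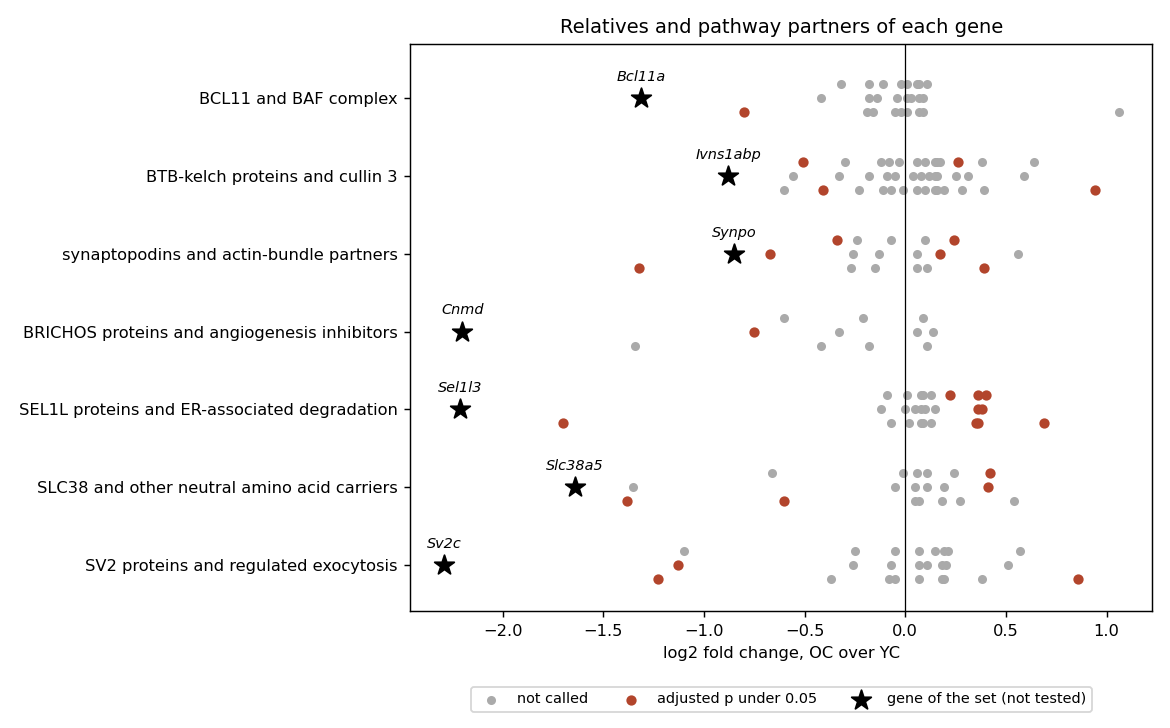
Log2 fold change of OC over YC (horizontal axis) for each tested gene of the 7 lists of relatives and partners, with genes at an edgeR adjusted p under 0.05 in red and the 7 genes as stars, which are not tested. Most relatives lie near 0, and the stars of Cnmd, Sel1l3 and Sv2c, at -2.20, -2.21 and -2.29, lie farthest to the left. The 7 genes were picked for low values on this axis, so nothing is read from the place of the stars.

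The genes most like each of the 7 over the 18 libraries were found by the root mean square distance between centred log2(CPM + 1) profiles, a description with no test that rewards the same step between ages. For Bcl11a they were Syt7, Fam13a and Ank3, at distances of 0.19, 0.19 and 0.20 against a root mean square of 0.63 for Bcl11a itself. For Synpo they were Ung, E2f1 and Ptch1 (0.12, 0.15 and 0.16 against 0.39), and for Ivns1abp Mras, Slco3a1 and Pik3cd (0.14, 0.15 and 0.15 against 0.41). Cnmd was nearest to Esr2, Bmpr1b and Khdc3 (0.33, 0.34 and 0.35 against 1.04), and Slc38a5 to Esr2, Ntng1 and Ano4 (0.31, 0.34 and 0.37 against 0.85). Sel1l3 was nearest to Zp3, a zona pellucida gene of the oocyte, Ntng1 and Col9a2 (0.23, 0.23 and 0.25 against 0.82). Sv2c had no close profile: its nearest, Nmu, Abca1 and Klhdc8a, were at 0.68, 0.72 and 0.79 against 1.18.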

How the data were processed

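Libraries of 18 ovaries were made with a 3' kit, per the labels' protocols. Per the submitters' processing notes, the tools were STAR 2.7.9a, RSEM 1.3.3 and FastQC 1.9 and the build was GRCm39; annotation and strand setting were not given in the sources used here. Per the file headers, each library has 1 RSEM gene table, in which the authors deposited TPM and expected counts. RSEM shares ambiguous reads among genes, and 67.4% of expected counts of the tested genes were within 0.005 of a whole number; for Cnmd and Sv2c they were whole in 18 of 18 libraries, for Bcl11a in 12. The TPM values deposited by the authors are divided by gene length, which 3' reads do not need, and served as an alternative only.

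Expected counts were rounded and filtered with edgeR (filterByExpr with its defaults of 10 counts, scaled to the median library, and 15 counts over all libraries), scaled by TMM and tested with the quasi-likelihood test of edgeR 4.0.16 in R 4.3.3, two-sided, with all 18 libraries in 1 fit of 3 group means and Benjamini-Hochberg adjustment over 16959 genes. SE and 95% intervals came from that fit. For marker sums an exact permutation test, two-sided, ran over 924 regroupings. The procedure was checked on simulated data. Symbols were matched by Ensembl identifier for 52083 of 55416 genes with a GRCm38 annotation, which also gave overlapping genes; promoter windows are RefSeq's in GRCm38.p6.

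The genes, the lists and the rule for naming genes (in each list of relatives or markers, up to 4 called genes with the smallest p) were chosen with earlier results of these data known, and the text prints part of what the rule gives; some of these genes are not reported here. Alternatives were limma 3.58.1 on log2(CPM + 1), log2(CPM + 0.5) and log2(TPM + 1), DESeq2 1.42.0, other filters and scalings, a replicate block, fits of 2 groups and each library left out. Added after seeing the data were leaving out OC+SM replicate 6 and YC replicate 3 together, marker sums with single libraries left out, and marker sums without their 3 leading genes.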

Additional observations from a re-analysis of the deposited data

Results flagged for a closer look

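No value of the 7 genes stood apart from its group by Dixon's test at the 95% level, but 5 of 60 groups of values tested did, all of them marker sums; chance flags about 1 in 20 groups. In OC+SM replicate 6 the endothelial sum was 274 CPM against 425 to 471 CPM in the other 5 libraries, and the sum for B cells and plasmacytoid dendritic cells was 34.0 CPM against 64.7 to 76.3 CPM. In the same library the macrophage sum was 757 CPM against 400 to 494 CPM, and the surface epithelium and mesothelium sum was 231 CPM against 160 to 179 CPM. This is the library with the highest aged Sv2c level. In YC replicate 3, the library with the lowest young Sv2c level, the macrophage sum was 516 CPM against 238 to 329 CPM.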

How the results depend on the processing

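For Bcl11a, Ivns1abp, Synpo, Cnmd, Sel1l3, Slc38a5 and Sv2c the sign against YC held in each of up to 29 alternatives, and none of the 7 passed an adjusted p of 0.05 for OC+SM against OC in any of them. Sel1l3 was smaller with limma, at -1.15 for OC over YC and -0.95 for OC+SM over YC on log2(TPM + 1), and Sv2c had no value on that scale. For OC+SM over OC the sign turned for Bcl11a (0.02 without OC+SM replicate 6 and YC replicate 3; -0.08 to 0.03 over single omissions), Slc38a5 (-0.38 to 0.01) and Sv2c (-0.07 on log2(CPM + 1), -0.12 on log2(CPM + 0.5), -0.47 without both libraries, -0.47 to 0.47 over single omissions); the cause was not tested. Without TMM factors the log2 ratio OC+SM over OC was 0.01 for the granulosa and cumulus sum (-0.07 with them) and 0.07 for the neuron sum (-0.01 with them). Without both libraries r of Cnmd and the B cell sum was -0.77 (0.10 with them).

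The count of genes called for OC+SM against OC was 176, and 663 with DESeq2, 45 with only the 2 groups compared and 483 without both libraries. Over single omissions it ran from 32 (without OC+SM replicate 3) to 593 (without OC+SM replicate 4). It also moved by over 1.5 times, to 99, 102, 78, 72 and 85, without OC replicates 1, 2, 3, 4 and 6, to 60, 105 and 318 without OC+SM replicates 1, 2 and 5, and to 380 without YC replicate 3. Relations past the threshold numbered 11, and 5 to 16 over single omissions, 6 without both libraries and 6 with marker sums that left out their 3 leading genes; the lowest, 5, came without OC replicate 1, YC replicate 1 or YC replicate 4, and 7 or fewer also without OC replicate 5, OC+SM replicates 5 or 6, or YC replicates 2, 3, 5 or 6. Same replicate numbers did not pair samples (r from -0.18 to 0.11 in 18 pairs, 1 of 18 libraries closest to its own number); with a replicate block 1756 genes were called for OC against YC, 3535 for OC+SM against YC and 139 for OC+SM against OC. Expected counts of 10 to 174 limit Sv2c in OC+SM, and 11.0 to 42.0 limit Sel1l3 in OC. Of the 7 lists of relatives, counts in OC against YC that moved by over 1.5 times were 1 against 3, 4 and 3 (BCL11 and BAF) and 4 against 7 and 7 (BTB-kelch) with DESeq2, with only 2 groups and, for the first, with the replicate block; on log2(TPM + 1) they were 6 against 3 (synaptopodins), 9 against 5 (SEL1L) and 4 against 1 (SLC38). Without both libraries they were 2, 7 and 2 against 1, 4 and 1 (BCL11 and BAF, BTB-kelch and BRICHOS). For OC+SM against OC, DESeq2 called 5 and 3 against 1 and 1 (BCL11 and BAF, synaptopodins), and with only 2 groups both were 0.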
